A study of Mus musculus with 22 samples.

Results

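The Ifit and Oas antiviral effector genes were followed in the terminal ileum, the last stretch of the small intestine, of NOD mice, inbred animals prone to autoimmune diabetes. The members, and the gene lists read beside them, were chosen by symbol with earlier results of these data known. Shares of all genes given beside their counts are therefore a background and not a test. The members were Ifit1, Ifit2, Ifit3, Oasl1, Oasl2, Oas2, Rsad2, Isg15, Usp18 and Xaf1, 10 genes in all. Of these, 9 had a probe set annotated to them alone, out of 18193 such genes on the array. The probe set that lists Isg15 also lists Gm9706, so it is given as the shared Isg15 and Gm9706 probe set and is left out of every count of members measured on the array. A gene with several probe sets was represented by the brightest, judged by its mean across the 22 arrays.

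The 22 arrays fell into 6 groups by treatment and sex: 3 control females, 5 control males, 3 females and 5 males given PAT, and 3 females and 3 males given STAT. PAT is the labels' name for therapeutic antibiotic doses given in pulses, and STAT for antibiotics below a therapeutic dose. The gene Stat2 is unrelated to the treatment of like name. All groups share the NOD background and the tissue. The sources used here do not give the drugs, doses, schedule or ages, nor what the controls received. Nothing in the labels says that the arrays came from separate animals, so the p-values measure the spread between these arrays, which may in part be technical.

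Interferons are secreted proteins that warn cells of infection. Type I and type III interferons bind receptors whose kinases activate a transcription factor complex that contains Irf9 and binds a promoter sequence named the interferon-stimulated response element. The genes switched on in this way include the members studied here, whose products bind viral RNA, help to degrade it, block viral replication or tune the response. In the small intestine, resident microbes are known to keep a basal level of this response going, and the epithelium responds chiefly to type III interferon.

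Promoter sequence of 4 members is shown because genes that interferon switches on are known to use the response element. RefSeq windows on GRCm38.p6 that run from 250 bases before to 50 bases after a transcript start were found for 8 of the 10 members. Each window was searched on both strands for the 10 letters GAAANNGAAA, which read TTTCNNTTTC on the other strand and where N is any base. Matches are in capitals, and every sequence reads 5′ to 3′ along the gene's own strand and stops before the outermost annotated start of the gene.
Ifit1, chr19:34640639-34640888, plus strand: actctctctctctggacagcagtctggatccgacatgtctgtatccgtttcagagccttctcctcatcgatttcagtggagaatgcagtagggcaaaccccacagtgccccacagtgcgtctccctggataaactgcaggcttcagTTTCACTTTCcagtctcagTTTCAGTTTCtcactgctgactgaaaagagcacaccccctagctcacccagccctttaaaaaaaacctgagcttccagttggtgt
Rsad2, chr12:26456453-26456702, minus strand: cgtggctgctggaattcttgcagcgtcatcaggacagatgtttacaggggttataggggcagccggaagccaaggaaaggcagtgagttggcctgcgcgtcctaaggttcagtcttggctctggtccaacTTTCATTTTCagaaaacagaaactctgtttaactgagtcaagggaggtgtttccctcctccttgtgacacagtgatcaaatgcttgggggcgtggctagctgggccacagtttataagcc
Isg15, chr4:156200819-156201068, minus strand: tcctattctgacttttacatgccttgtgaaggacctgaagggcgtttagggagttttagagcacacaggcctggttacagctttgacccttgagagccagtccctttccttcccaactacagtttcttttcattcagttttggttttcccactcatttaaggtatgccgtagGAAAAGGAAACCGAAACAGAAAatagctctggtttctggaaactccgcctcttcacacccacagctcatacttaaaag
Oasl2, chr5:114896684-114896925, plus strand: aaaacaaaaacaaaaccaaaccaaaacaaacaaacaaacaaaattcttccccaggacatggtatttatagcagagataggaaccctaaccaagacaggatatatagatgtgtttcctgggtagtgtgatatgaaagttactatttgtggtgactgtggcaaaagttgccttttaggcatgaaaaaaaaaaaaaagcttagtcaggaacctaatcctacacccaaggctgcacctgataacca

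Ifit1 held 2 matches, Rsad2 held 1 and Isg15 held 3 that overlap one another. Oasl2 is shown beside them as a member with 0 matches in its window. Whether a match goes with a change under PAT was not tested. The window of Ifit3 lies inside the gene as annotated, so 30 bases around each of its 2 matches are given.
Ifit3, first match, chr19:34583363-34583392, plus strand: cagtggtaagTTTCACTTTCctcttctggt
Ifit3, second match, chr19:34583397-34583426, plus strand: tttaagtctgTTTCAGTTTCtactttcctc
The 10 letters of the first match of Ifit3 are also those of the first match of Ifit1, and likewise for the second. Ifit2 (2 windows), Oasl1 and Xaf1 held 0 matches, so 4 of the 8 member genes with a window, Isg15 among them, held at least 1. Of all 32851 RefSeq windows, 3.44% held a match, and 0.225% held 2 or more. A match is a description of letters and does not show that a factor binds, and the windows are of the reference strain, not of NOD mice.

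The values are RMA log2 levels, a scale on which a step of 1 is a 2-fold change, and levels of different probe sets cannot be set against each other. Column medians ran from 5.68 to 5.79. The arrays matched their labelled sex (Xist 12.07 to 12.60 in females and at most 7.75 in males) and tissue, with the ileal bile acid binding protein Fabp6 at 13.93 to 14.62 in females and 14.01 to 14.60 in males. The tissue was measured in bulk, where fewer cells of a type and less RNA per cell cannot be told apart. Among PAT males 1 array, PAT male 5 (titled BP138), stood apart in these genes. Because it was singled out by the levels of these same genes, leaving it out narrows their spread by choice. The p-values and counts of members without it are therefore a description and not a test. Differences of the members and of the shared probe set that use PAT males are given with and without it where it changes a call. STAT males 2 and 3 had beta-actin differences between the 3-prime and 5-prime ends, a measure of RNA integrity, of 0.59 and 0.60, against 0.28 to 0.42 in the other 20 arrays.

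With PAT, taking both sexes at equal weight, Ifit1 and Oasl2 fell, and the other 7 members did not pass the test. A gene was called where its limma p-value was under 0.05 after Benjamini-Hochberg adjustment across the whole array. Of all genes 11.0% were called in this comparison and 6.38% were called lower, against 2 of 9 members lower and 0 higher. The median of the members was -0.40 on the log2 scale, against 0.00 over all genes tested. Without PAT male 5, an array set aside for its levels in these genes, limma called 6 of the 9 members lower and 0 higher. They were Ifit1, Ifit3, Oasl2, Rsad2, Usp18 and Xaf1, with 9.97% of all genes called and 5.51% called lower. The median was then -0.49, against -0.01 over all genes.

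**Figure D1:**
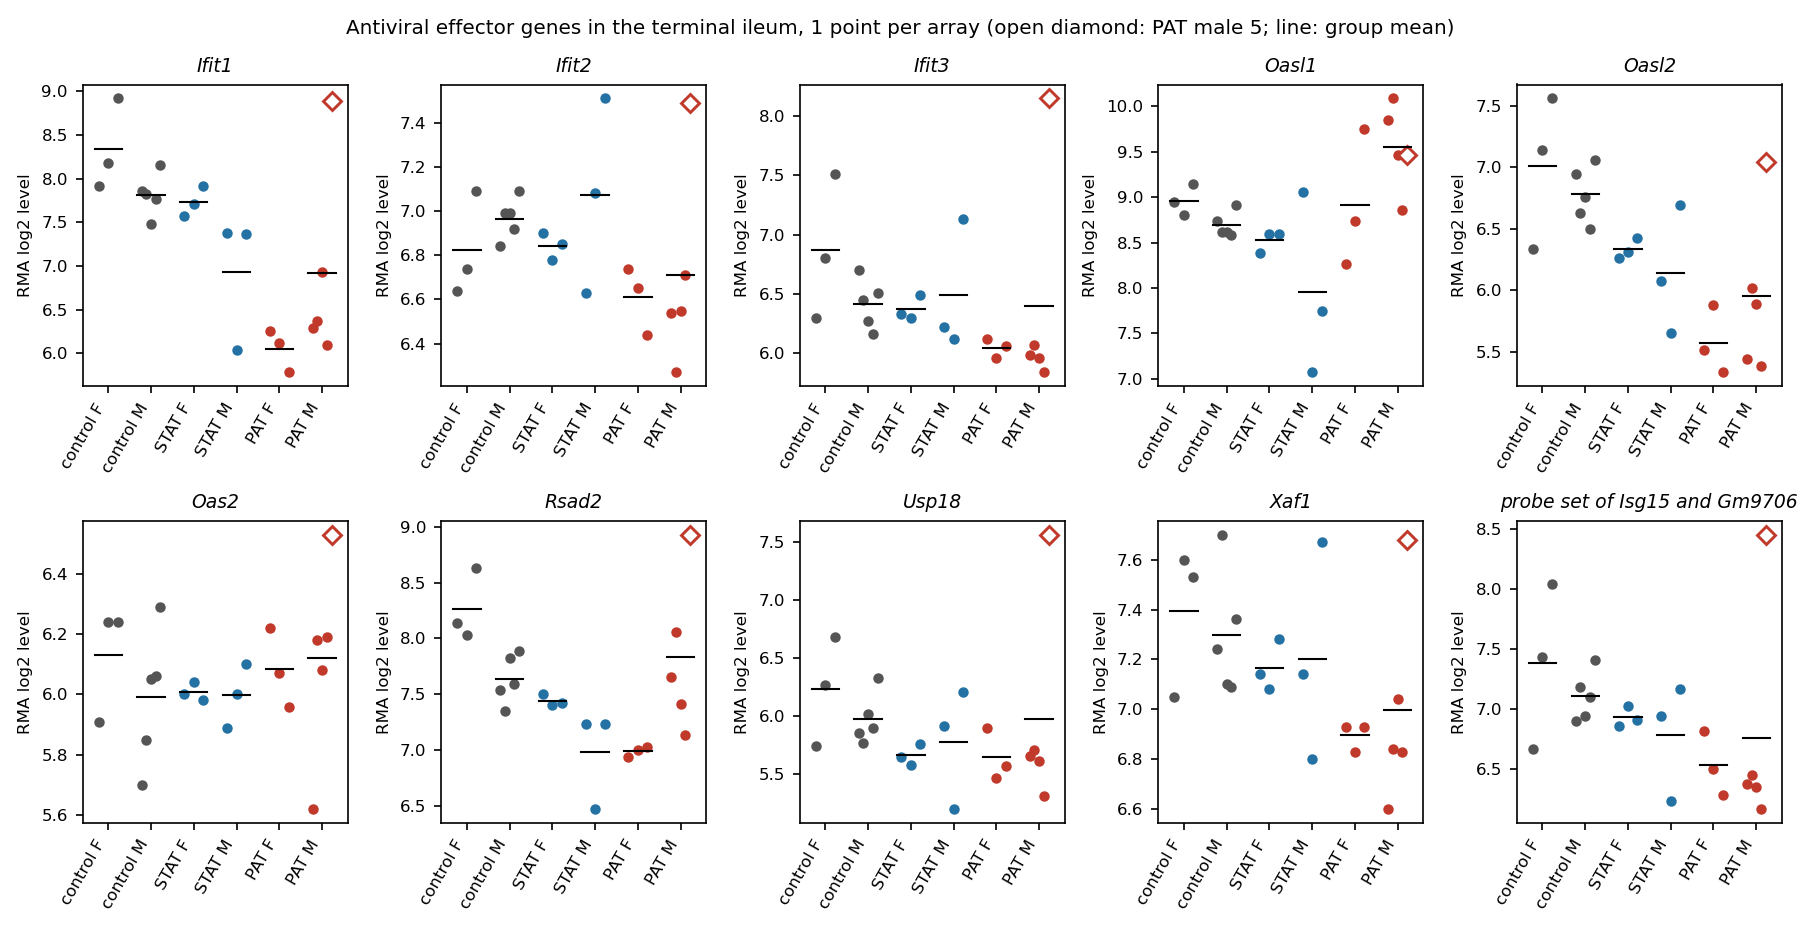
Each panel plots the RMA log2 level (vertical axis) of 1 member, or of the probe set shared by Isg15 and Gm9706, with 1 point per array, by treatment and sex (F, female; M, male; grey, control; blue, STAT; red, PAT). The line is the group mean and the open diamond is PAT male 5, which lies at 8.15 for Ifit3 while the other 4 PAT males lie between 5.84 and 6.07.

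Ifit1 binds viral RNA that lacks the methyl marks of host messages and blocks its translation. Its levels were 7.92, 8.18 and 8.92 in control females and 6.25, 6.12 and 5.78 in PAT females. In control males they were 7.86, 7.82, 7.48, 7.77 and 8.15, and in PAT males 6.29, 6.37, 6.93, 6.10 and 8.89. All 3 PAT females and PAT males 1 to 4 lay below every control of their sex, whereas PAT male 5 lay above every control male. Averaged over the sexes Ifit1 fell by 1.60 ± 0.31 (SE) on the log2 scale (adjusted p = 0.0022), and it was called whichever of the 16 arrays was left out. The value without PAT male 5 was -1.84 ± 0.19 (3.58-fold lower, adjusted p = 5.8e-06).

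By sex, Ifit1 fell by 2.29 ± 0.49 in PAT females (adjusted p = 0.017, 3 arrays against 3). That call ended without control female 2 (adjusted p = 0.054) or control female 3 (0.089). In males the difference of -0.90 ± 0.38 did not pass (adjusted p = 0.14, 5 against 5), and it passed without PAT male 5 (-1.39 ± 0.24, adjusted p = 0.0016, 4 against 5). The female and male differences differed by -1.39 ± 0.62, which did not pass (adjusted p = 0.24), and by -0.90 ± 0.38 without PAT male 5 (adjusted p = 0.23).

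Ifit2 and Ifit3 belong to the same family and lie beside Ifit1 on chromosome 19, and the Ifit3 protein is known to act together with its relatives. Ifit3 levels were 6.30, 6.80 and 7.51 in control females and 6.12, 5.96 and 6.06 in PAT females. They were 6.70, 6.45, 6.27, 6.16 and 6.51 in control males and 5.99, 6.07, 5.96, 5.84 and 8.15 in PAT males. As with Ifit1, PAT male 5 was the only PAT array not below every control of its sex, and here it was the highest of the 22 arrays. The average difference of -0.42 ± 0.27 did not pass (adjusted p = 0.37). Without PAT male 5 Ifit3 was lower by 0.64 on the log2 scale (-0.64 ± 0.15, adjusted p = 0.012).

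Ifit2 varied less. Its levels ran from 6.64 to 7.09 in the 8 control arrays, from 6.27 to 6.74 in the 7 PAT arrays other than PAT male 5, and stood at 7.49 in that array. The average difference was -0.23 ± 0.14 (adjusted p = 0.35), and without PAT male 5 it was -0.33 ± 0.11 (adjusted p = 0.054), which did not pass either. STAT male 3, at 7.51, was the highest of all arrays for this gene.

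The Oas family senses double-stranded RNA. Oas2 makes the short adenylate chains that activate an RNA-degrading enzyme, while the Oas-like proteins Oasl1 and Oasl2 are relatives with ubiquitin-like ends. Oasl2 levels were 6.33, 7.14 and 7.56 in control females and 5.51, 5.88 and 5.33 in PAT females. They were 6.94, 6.63, 6.76, 6.50 and 7.06 in control males and 5.44, 6.02, 5.89, 5.38 and 7.04 in PAT males. PAT male 5 lay inside the range of control males, and the other 7 PAT arrays lay below every control of their sex. Oasl2 fell by 1.13 ± 0.21 averaged over the sexes (adjusted p = 0.0019) and was called whichever array was left out, and the value without PAT male 5 was -1.26 ± 0.17 (2.40-fold lower, adjusted p = 0.00011).

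In PAT females Oasl2 fell by 1.43 ± 0.34 (adjusted p = 0.026). This call ended in 4 of the 6 fits with a single array omitted, those without control female 2 (adjusted p = 0.098), control female 3 (0.14), PAT female 1 (0.087) or PAT female 3 (0.055). In males the difference was -0.82 ± 0.26 (adjusted p = 0.054), and without PAT male 5 it was -1.09 ± 0.22 (adjusted p = 0.0048).

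Oasl1, which is known to hold back the translation of Irf7, went another way. Its levels were 8.74, 8.62, 8.62, 8.58 and 8.91 in control males and 9.85, 10.09, 9.47, 8.86 and 9.47 in PAT males. In females they were 8.95, 8.80 and 9.14 in controls and 8.26, 8.74 and 9.75 with PAT. Of the 5 PAT males 4 lay above every control male, while the PAT females lay on both sides of the control females. The male difference of 0.86 ± 0.29 did not pass (adjusted p = 0.067), and neither did it without PAT male 5 (0.88 ± 0.31, adjusted p = 0.1). It passed without PAT male 4 (1.03, adjusted p = 0.036), with array weights (0.89, adjusted p = 0.031) and with the Gapdh 3-prime to 5-prime difference as a covariate (1.32, adjusted p = 0.0036).

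Oas2 showed no call in any of the 12 comparisons made with limma. It ran from 5.70 to 6.29 in controls, from 5.62 to 6.53 with PAT and from 5.89 to 6.10 with STAT. The average PAT difference was 0.04 ± 0.11 (adjusted p = 0.88), and -0.01 ± 0.10 without PAT male 5 (adjusted p = 0.97). PAT male 5 was again the highest array, at 6.53.

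Rsad2 encodes viperin, which makes a chain-terminating nucleotide that stops viral polymerases. Its levels were 8.14, 8.03 and 8.63 in control females and between 6.94 and 7.03 in the 3 PAT females. In males they were 7.54, 7.35, 7.82, 7.59 and 7.89 in controls and 7.65, 8.06, 7.41, 7.13 and 8.93 with PAT. The female groups did not overlap, as was so for 13.2% of all genes in this direction, and the male groups did. Rsad2 fell by 1.27 ± 0.30 in PAT females (adjusted p = 0.027), a call that held in 1 of the 6 fits with a single array omitted (the highest adjusted p was 0.13, without control female 3).

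In PAT males the Rsad2 difference was 0.20 ± 0.23 (adjusted p = 0.63), and -0.08 ± 0.18 without PAT male 5 (adjusted p = 0.85). The female effect differed from the male effect by -1.47 ± 0.38, which did not pass (adjusted p = 0.11), nor did it without PAT male 5 (-1.20 ± 0.28, adjusted p = 0.056). Of all genes 0.00550% were called in this test of the sexes against each other, and 0.275% without PAT male 5. Averaged over the sexes the difference was -0.54 ± 0.19 (adjusted p = 0.075), and without PAT male 5 it was -0.68 ± 0.14 (adjusted p = 0.0039). The 3 Rsad2 probe sets differed by -1.12, -1.16 and -1.27 in PAT females, and the second of these did not pass on its own (adjusted p = 0.11). In PAT males the same probe sets, in that order, were at 0.20, 0.65 and 0.20. Averaged over the sexes with all arrays they were at -0.46, -0.25 and -0.54, and none passed (limma adjusted p = 0.11, 0.64 and 0.09).

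Isg15 is a ubiquitin-like protein that is attached to other proteins, and Usp18 removes it and also dampens signalling at the type I interferon receptor. Usp18 levels were 5.74, 6.27 and 6.68 in control females and 5.90, 5.47 and 5.57 in PAT females. They were 5.85, 5.77, 6.02, 5.90 and 6.33 in control males and 5.66, 5.71, 5.61, 5.31 and 7.56 in PAT males. PAT males 1 to 4 lay just below the control males, and PAT male 5 was the highest array. The average difference was -0.29 ± 0.24 (adjusted p = 0.53), and without PAT male 5 it was -0.49 ± 0.15 (adjusted p = 0.036).

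The shared Isg15 and Gm9706 probe set took the same form. It was at 6.67, 7.43 and 8.04 in control females and 6.82, 6.50 and 6.29 in PAT females. In males it was at 6.90 to 7.41 in controls, 6.17 to 6.45 in PAT males 1 to 4 and 8.45 in PAT male 5. Tested among all probe sets, the average difference was -0.60 ± 0.26 (adjusted p = 0.19), and -0.81 ± 0.16 without PAT male 5 (adjusted p = 0.0038). In males it was -0.35 ± 0.32 (adjusted p = 0.57), and -0.77 ± 0.20 without PAT male 5 (adjusted p = 0.034).

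Xaf1, which binds the apoptosis inhibitor Xiap, was at 7.05, 7.60 and 7.53 in control females and 6.93, 6.83 and 6.93 in PAT females. In males it ran from 7.09 to 7.70 in controls and from 6.60 to 7.04 in PAT males 1 to 4, and it stood at 7.68 in PAT male 5. The average difference was -0.40 ± 0.14 (adjusted p = 0.08), and without PAT male 5 it was -0.48 ± 0.12 (adjusted p = 0.014). A second, dimmer Xaf1 probe set had a difference of -0.08 ± 0.08 (adjusted p = 0.65).

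**Figure D2:**
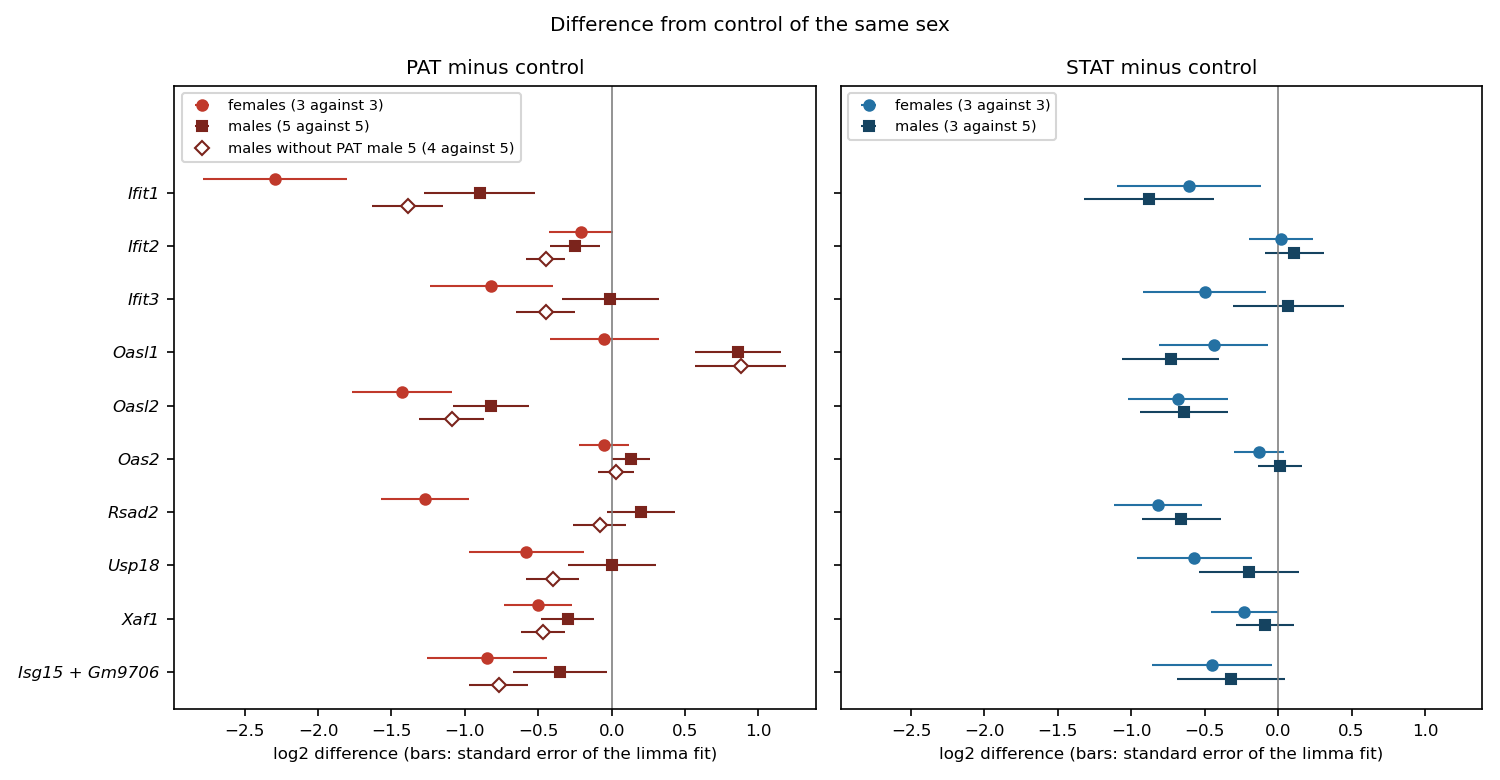
Log2 differences from control of the same sex (horizontal axis; bars, SE of the limma fit) are plotted for each member and for the shared Isg15 and Gm9706 probe set, for PAT on the left and STAT on the right. Open diamonds leave out PAT male 5, which moves Ifit3 in males from -0.01 to -0.45 and leaves Oasl1 near 0.9 at 0.86 and 0.88.

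Within the sexes, PAT females had 3 of 9 members called lower (Ifit1, Oasl2 and Rsad2) and 0 higher, where 3.35% of all genes were called and 1.08% were called lower, with a median of -0.58 against -0.01 over all genes. This count was 0 without control female 2 or control female 3 and 1 without PAT female 1. It stayed at 3 in none of the fits with a single control or PAT female omitted. In PAT males limma called 0 of 9 with all arrays, where 9.02% of all genes were called. The 3 members with an unadjusted p under 0.05 went both ways, Ifit1 (-0.90) and Oasl2 (-0.82) lower and Oasl1 (0.86) higher. The share of all genes under that unadjusted limit is not given here, so their number is not read as a result. Without PAT male 5 limma called 2, Ifit1 and Oasl2, both lower, where 6.39% of all genes were called and 4.41% were called lower. With all 5 PAT males, 0 of the 9 members had every PAT male below all control males. Arrays of PAT males 1 to 4, left once PAT male 5 was set aside for its levels in these genes, did so for 6 members. These were Ifit1, Ifit2, Ifit3, Oasl2, Usp18 and Xaf1, beside 6.38% of all genes. PAT females all lay below all control females for 5 (Ifit1, Ifit3, Oasl2, Rsad2 and Xaf1), against 13.2% of all genes.

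PAT male 5 was set against the control males 1 gene at a time. It lay above all 5 of them for 7 of the 9 members, all but Oasl2 and Xaf1, and below all of them for 0. Over all genes it lay above them for 26.6% and below them for 31.3%. PAT males 1 to 4 lay below all control males for 7, 6, 6 and 7 members (22.7%, 33.0%, 25.8% and 27.4% of all genes) and above them for 1, 2, 1 and 0 (17.3%, 20.1%, 17.0% and 24.0%). PAT females 1 to 3 lay below all control females for 6, 7 and 7 members (34.3%, 30.9% and 29.6% of all genes) and above them for 0, 0 and 1 (32.6%, 33.7% and 29.3%). So PAT male 5 was the only PAT array with more members above than below the controls of its sex. Relative to the mean of the other 4 PAT males it was higher by 2.46 for Ifit1, 2.18 for Ifit3 and 1.99 for Usp18, and lower by 0.10 for Oasl1 (-0.10).

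Of 74 other measured pathway genes, PAT male 5 lay above all control males for 27 and below all of them for 23, beside 26.6% and 31.3% of all genes. Igtp, an interferon-induced GTPase, stood 1.14 above the control male mean in PAT male 5 and at -0.63 in the mean of the other 4 PAT males. Rtp4, an interferon-induced chaperone, was at 0.74 and -1.09, and Oas1a at 0.84 and -0.45. The chemokines Cxcl9 and Cxcl10, which draw T cells, were at 1.59 and 1.90 in PAT male 5 and at -0.34 and -0.13 in the mean of the others. The transcription factor Irf1 was at -0.46 and -1.31 and the ADP-ribosyltransferase Parp14 at -0.61 and -1.28, so both lay below the control male mean in PAT male 5 too. These 7 genes were picked after their values were seen.

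**Figure D3:**
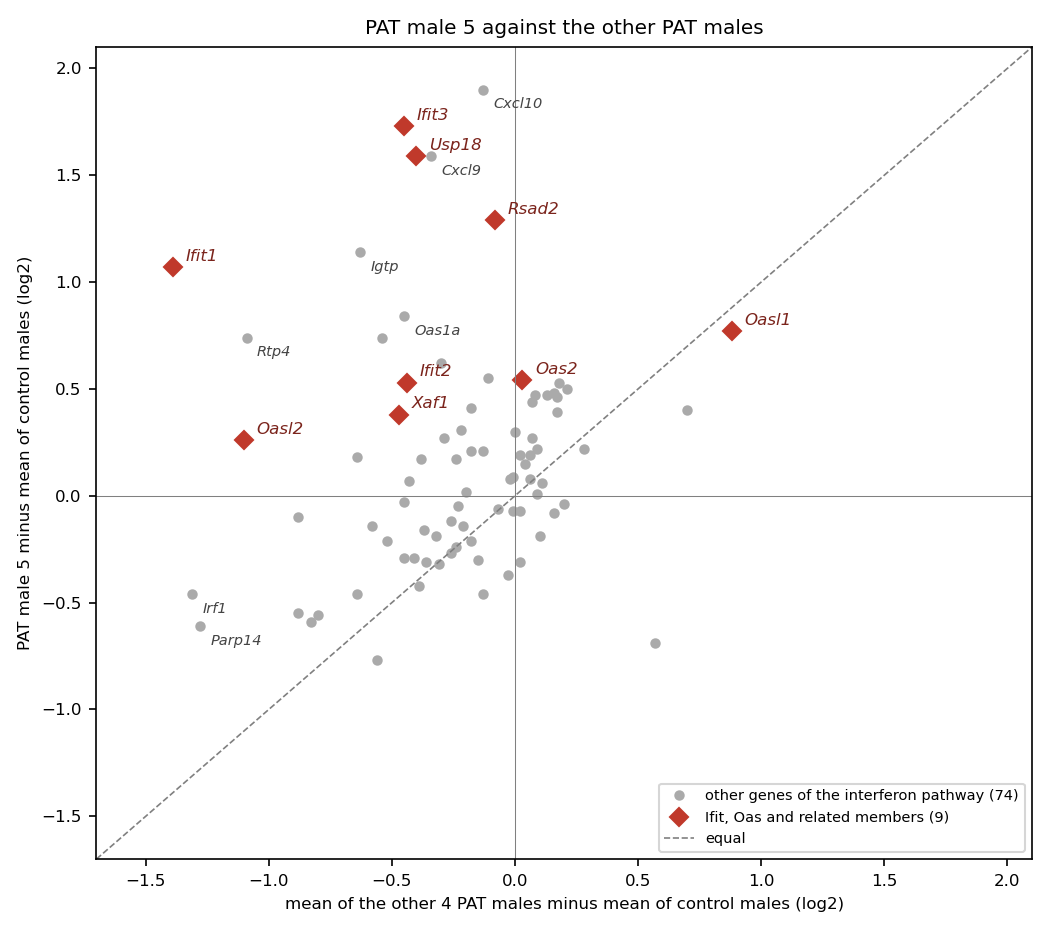
Each point is 1 gene: the mean of the other 4 PAT males minus the mean of control males (horizontal axis, log2) against PAT male 5 minus the same mean (vertical axis, log2), for the 9 members (diamonds) and 74 other interferon pathway genes (circles). The dashed line marks equal values; Ifit1 lies at -1.39 on the horizontal and 1.07 on the vertical axis, while Oasl1 lies near the line.

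Values of other kinds were read beside PAT male 5. Its Gapdh 3-prime to 5-prime difference was -0.08, against -0.26 to -0.20 in control males and -0.23 to -0.13 in the other PAT males. PAT female 2 was also at -0.08. The beta-actin difference of PAT male 5 was 0.38, as in control male 3 and inside the 0.29 to 0.42 of the other PAT males. PAT male 5 is the only PAT array with a title number above 130, as are control males 4 and 5, STAT female 3 and STAT males 2 and 3 in their groups. With a term for such titles limma still called 2 members lower in PAT averaged over the sexes (8.38% of all genes), and with arrays of title numbers below 130 alone it called 7 lower (6.34%). Mean levels of the marker lists in PAT male 5 were inside the range of the other PAT males for T cells (5.99), plasma cells (9.23), plasmacytoid dendritic cells (8.53), macrophages (8.15), neutrophils (4.61) and adipocytes (5.03), and just above it for B cells (4.99 against 4.73 to 4.98). The level of its smooth muscle markers, 10.62, was below the other PAT males (11.16 to 11.60) and the control males (11.27 to 11.68). The plasmacytoid dendritic cell list averages Klk1 (mean level 12.59), Cox6a2 (6.78) and Siglech (5.97). Its height is mostly that of Klk1, so it is a weak measure of such cells. Siglech alone stood at 6.03 in PAT male 5, against 5.50 to 6.31 in control males. The part of RNA integrity, title number and cell makeup in the result was not tested.

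STAT arrays were mostly between the control and PAT arrays for Ifit1 and Oasl2, and no member was called. Limma called 0 of 9 members and 0.00% of all genes in STAT against control averaged over the sexes, with 4 of the 9 members at an unadjusted p under 0.05 (2391 of all 18193 genes). With array weights limma called 2 members lower, where 6.74% of all genes were called lower. They were Oasl1 (-0.76, adjusted p = 0.012) and Rsad2 (-0.74, adjusted p = 0.0079). Without array weights both passed when STAT male 1 was left out (-0.86, adjusted p = 0.024, and -0.81, adjusted p = 0.036). That keeps only STAT males 2 and 3 in the male group, the arrays with the larger beta-actin difference. Neither passed without STAT male 2 (Oasl1 -0.36, adjusted p = 0.68, and Rsad2 -0.62, adjusted p = 0.56). With all arrays and no array weights, the median of the members was -0.38, against 0.00 over all genes, and 8 of 9 differences were below 0.

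Ifit1 in STAT females was at 7.57, 7.71 and 7.92 and in STAT males at 7.38, 6.04 and 7.37. All 6 lay below every control of their sex, though the highest STAT female and the lowest control female both round to 7.92. The average difference was -0.74 ± 0.33 (adjusted p = 0.34). Rsad2 was at 7.50, 7.40 and 7.42 in STAT females and at 7.23, 6.47 and 7.23 in STAT males, so all 6 lay below every control of their sex. That held for 5.10% of all genes in females and 3.64% in males, and the average difference was -0.74 ± 0.20 (adjusted p = 0.22). Oasl2 differed by -0.66 ± 0.23 (adjusted p = 0.26).

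Oasl1 was at 9.06, 7.07 and 7.75 in STAT males and at 8.39, 8.59 and 8.60 in STAT females. The low values were those of STAT males 2 and 3, the arrays with the larger beta-actin difference. PAT males stood above STAT males by 1.59 ± 0.33 (adjusted p = 0.007), and 8.71% of all genes were called in that comparison. The difference was 0.49 (adjusted p = 0.69) without STAT males 2 and 3, where the remaining STAT male is assumed to vary like the other groups, and 1.14 (adjusted p = 0.089) and 1.48 (0.058) without each. The part of RNA integrity in it was not tested.

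Averaged over the sexes, Oasl1 was higher in PAT than in STAT by 0.99 ± 0.25 (adjusted p = 0.022), the only member of 9 that limma called, where 5.88% of all genes were called. That value was 0.44 (adjusted p = 0.37) without STAT males 2 and 3, and the call also ended without PAT female 3 (0.074), STAT female 1 (0.057), STAT male 2 (0.078) or STAT male 3 (0.059). Fitted on the PAT and STAT groups alone, neither the average (adjusted p = 0.088) nor the male difference (0.08) passed. Ifit1 was lower in PAT than in STAT by a difference of -0.85 ± 0.33 (adjusted p = 0.13), and without PAT male 5 by -1.10 ± 0.20 (adjusted p = 0.0023). Ifit2 differed by -0.30 ± 0.15 (adjusted p = 0.27), by -0.39 ± 0.11 without PAT male 5 (adjusted p = 0.045), and by -0.19 without STAT male 3 (adjusted p = 0.56). Of all genes 5.16% were called without PAT male 5, and 2.39% were called lower. In females PAT stood at -1.69 ± 0.49 against STAT for Ifit1 (adjusted p = 0.098), which did not pass, and 0.863% of all genes were called. In males PAT stood at -0.36 ± 0.20 against STAT for Ifit2 (adjusted p = 0.28). That male value was -0.55 ± 0.15 without PAT male 5 (adjusted p = 0.036) and -0.14 without STAT male 3 (adjusted p = 0.8). PAT and STAT share their controls, so the differences from control of each are not independent.

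Between control females and control males limma called 0 of the 9 members, 1 had an unadjusted p under 0.05 (Rsad2, higher in females by 0.63 ± 0.27, adjusted p = 0.35), and 0.0550% of all genes were called. Control female 3 was the highest control array for Ifit1 (8.92), Ifit3 (7.51), Oasl2 (7.56), Rsad2 (8.63) and Usp18 (6.68).

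Around the members, a list of 74 measured interferon pathway genes was read by role in PAT against control averaged over the sexes, where 2 were higher and 25 lower. Over all genes 11.0% were called and 6.38% were called lower, which is the background for each role below. Of 8 interferon genes measured 0 were called and the median was 0.01. Their mean levels, from 3.62 (Ifna11) to 5.66 (Ifna1), were below every column median, so a change could be missed. The type III genes Ifnl2 and Ifnl3, and Ifnk and Ifne, were listed too but were not measured. Ifna5 was at -0.17 ± 0.13 and Ifng, the type II interferon, at -0.06 ± 0.09. Of 6 receptor chains 1 was lower, Ifngr2 of the interferon gamma receptor (-0.32 ± 0.09, adjusted p = 0.032), and Ifnar2 of the type I receptor was at -0.15 ± 0.05 (adjusted p = 0.089). By sex, Ifnar2 was at 0.01 ± 0.09 in PAT females and was called lower in PAT males (-0.31 ± 0.07, adjusted p = 0.0073). The type III receptor chains Ifnlr1 (0.13 ± 0.09) and Il10rb (-0.20 ± 0.09) were not called averaged over the sexes. Of 11 sensors 3 were lower, the RNA sensors Ddx58 (-0.47 ± 0.08), Ifih1 (-0.22 ± 0.07) and Tlr3 (-0.35 ± 0.09), and the DNA sensor Cgas was higher (0.35 ± 0.09).

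Of 12 signalling genes and regulators 5 were lower and 1 higher. Irf1, a transcription factor that interferon gamma induces strongly, fell by 1.16 ± 0.14 (adjusted p = 3.1e-05), and Irf9 and Stat2, partners in the complex that binds the response element, had differences of -0.57 ± 0.11 and -0.40 ± 0.10. The kinase Tbk1, which acts downstream of the sensors, was at -0.35 ± 0.08. The gene higher was Socs1, an inhibitor of signalling (0.30 ± 0.09, adjusted p = 0.042), which is named because it was the 1 exception. Socs1 was at -0.05 ± 0.15 in PAT females (adjusted p = 0.89) and at 0.64 ± 0.11 in PAT males (adjusted p = 0.0015), with a low mean level of 5.01. Of 26 other antiviral effectors 10 were lower and 0 higher, among them Parp14 (-1.21 ± 0.14), its relative Parp9 (-0.79 ± 0.13), the Parp9 partner Dtx3l (-0.85 ± 0.11) and Ifi35 (-0.48 ± 0.08). Of 11 targets known for interferon gamma 6 were lower and 0 higher, among them the GTPases Ifi47 (-0.79 ± 0.14) and Irgm1 (-0.42 ± 0.09) and the immunoproteasome subunits Psmb8 (-0.77 ± 0.13) and Psmb9 (-0.50 ± 0.08).

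Without PAT male 5 the list had 2 higher and 29 lower, against 25 lower with that array, and 5.51% of all genes were called lower. Each call named in the preceding paragraphs on this list was also made without it. Irf1 in males was at -1.14 ± 0.17 with it and -1.31 ± 0.15 without it (adjusted p = 0.00044 and 2e-05), and Parp14 at -1.15 ± 0.18 and -1.28 ± 0.17 (adjusted p = 0.00052 and 0.00012).

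**Figure D4:**
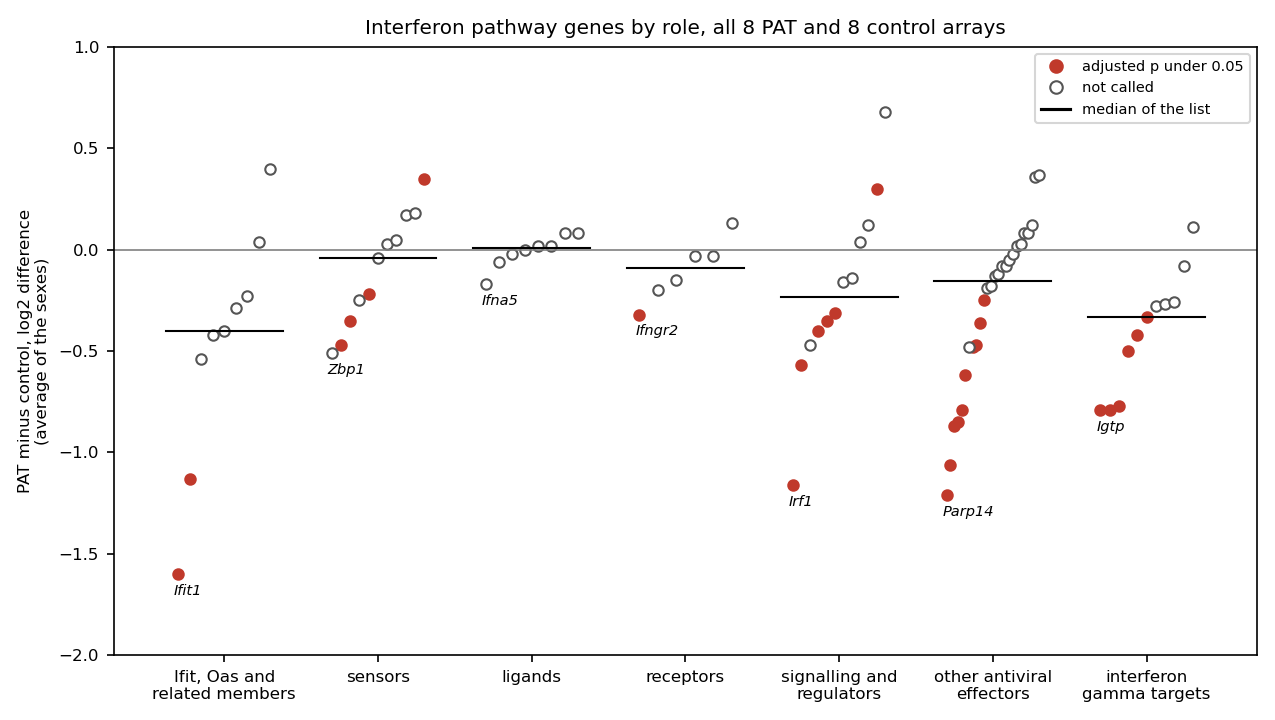
Each point is 1 gene's log2 difference of PAT minus control averaged over the sexes (vertical axis), grouped by role along the horizontal axis; filled points passed at an adjusted p under 0.05 and lines are list medians. The members' median is -0.40, with Ifit1 lowest at -1.60. The median of the measured interferon genes, whose mean levels are below every column median, is 0.01.

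Across the 22 arrays most members followed one another. Pearson's r of a member with the mean of the others was 0.90 for Usp18, 0.85 for Ifit3, 0.84 for Rsad2, 0.83 for Ifit1 and Oasl2, 0.77 for Xaf1, 0.50 for Ifit2 and 0.44 for Oas2. It was 0.04 for Oasl1. Without PAT male 5, r was 0.87 for Usp18, 0.90 for Oasl2, 0.31 for Ifit2, 0.20 for Oas2 and -0.10 for Oasl1. These values are a description over arrays that share treatments and normalization.

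Genes outside the members that were most like their mean over the 22 arrays were Rtp4 (r = 0.89), Oas1a, Igtp and Irgm2 (0.88 each), Lgals3bp (0.86), Gbp6 (0.83), Hrc (0.76) and Kcnc1 (0.73), out of 11443 genes with a mean of at least 6. After each group's mean was subtracted the first were Rtp4 (0.94), Bst2 (0.92), Lgals3bp (0.91), Irgm2 (0.88), Igtp (0.87), Oas1a (0.84), Gbp6 (0.81) and D030056L22Rik (0.76). Without PAT male 5, the same genes had r of 0.67 (Kcnc1) to 0.89 (Rtp4) over the arrays. After group means were subtracted, r without that array was 0.84 for Rtp4, 0.77 for Bst2, 0.73 for Lgals3bp, 0.63 to 0.71 for Oas1a, Gbp6, Igtp and Irgm2, and 0.13 for D030056L22Rik. Both lists held Rtp4, Oas1a, Igtp, Irgm2, Lgals3bp and Gbp6.

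Cell type markers were read beside the members in the same comparison of PAT with control. Of 6 T cell and intraepithelial lymphocyte markers 2 were lower, the granzymes Gzma (-1.58 ± 0.24) and Gzmb (-0.90 ± 0.18), while the T cell receptor subunit Cd3e was at 0.01 ± 0.06. Another such subunit, Cd3g, was at -0.28 ± 0.18, with 0.10 ± 0.29 in females and -0.66 ± 0.22 in males (adjusted p = 0.065 in males). Cd8a was at -0.02 ± 0.09, with -0.30 ± 0.14 in females and 0.26 ± 0.11 in males. The mean level of that list ran from 6.16 to 6.55 in control females and from 5.67 to 6.25 in PAT females. In males it ran from 6.33 to 6.63 in controls and from 5.81 to 6.08 with PAT, so PAT males were all below control males, PAT male 5 among them. The granzymes Gzma (-1.47 ± 0.30) and Gzmb had the largest male differences of this list, followed by Cd3g. Itgae was at -0.07 ± 0.13 in males, Cd3e did not differ there, and Cd8a was higher. The lower list mean in PAT males is thus mostly that of the granzymes, so it is a weak measure of T cell number. Of 7 macrophage and monocyte, 4 B cell, 5 neutrophil and 3 plasmacytoid dendritic cell markers measured, 0 were called by limma (0, 1, 0 and 1 at an unadjusted p under 0.05). Among plasma cell markers only Sdc1 was called, higher (0.32 ± 0.10, adjusted p = 0.033). Jchain was at 0.00 ± 0.11, Mzb1 at 0.07 ± 0.18 and Tnfrsf17 at -0.31 ± 0.13. In PAT males Sdc1 was called higher (0.47, adjusted p = 0.017), and Mzb1 (-0.74, adjusted p = 0.042) and Tnfrsf17 (-0.51, adjusted p = 0.044) were called lower. Without PAT male 5 neither lower call was made (adjusted p = 0.077 and 0.061). Among ileal enterocyte markers only Fabp6 was called, higher (0.21 ± 0.07, adjusted p = 0.049), a call that ended without PAT male 5 (adjusted p = 0.08). The others ran from -0.40 ± 0.15 (Anpep) to 0.06 (Cdh17 and Fabp2). The B cell list stood at 6.92 in PAT female 1, against 4.66 to 5.04 in the other arrays. The part of cell makeup in the lower Ifit1 and Oasl2 levels was not tested.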

How the data were processed

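Terminal ileum RNA from 22 NOD mouse samples was hybridised to 1-colour Affymetrix arrays, per the labels' protocols. The authors deposited log2 values per probe set, and the submitters' processing notes name RMA and affy; the sources used here give no settings. RMA makes all arrays share one distribution, so a shift of most genes would not be seen.

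Probe sets were named from the platform annotation: of 45101, 64 were array controls, 34945 had 1 gene symbol, 932 several and 9160 none. One probe set per gene, that of highest mean, gave 18193 genes. limma 3.58.1 in R 4.3.3 fitted 6 group means with empirical Bayes and 16 residual degrees of freedom. Calls were made under 0.05 after Benjamini-Hochberg adjustment across the whole gene table. The shared Isg15 and Gm9706 probe set and single probe sets were tested among all probe sets. Errors after ± are SE. The fit was tested on simulated data. Up to 4 genes per pathway list, those of smallest p for PAT averaged over the sexes, and the 8 most alike genes are named. The members and lists were chosen with earlier results of these data known.

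The alternatives were another probe set rule, a filter on low levels, 2 renormalizations, fewer groups, array weights, a Gapdh covariate, title numbers, and each array left out. Array number limits the precision.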

Additional observations from a re-analysis of the deposited data

Results flagged for a closer look

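Within PAT males, 3 of the values described above stood apart from the rest of their group, all in PAT male 5. In each, the gap from the highest array to its nearest neighbour, as a share of the group's whole range, was above Dixon's 95% critical value of 0.71 for 5 arrays. Ifit3 stood at 8.15 with the next PAT male at 6.07, a gap of 0.90 of the range. Usp18 stood at 7.56 with the next at 5.71, a gap of 0.82. The shared Isg15 and Gm9706 probe set stood at 8.45 with the next at 6.45, a gap of 0.88. Chance flags about 1 in 20 groups, and 20 were tested. The 3 values are not separate evidence, since they come from 1 array that had already been singled out, in genes that move together. The groups of 3 arrays were not tested.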

How the results depend on the processing

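The counts of members called depended on single arrays. Leaving out 1 array of the groups compared at a time gave 2 to 6 members for PAT against control averaged over the sexes (2 with all arrays, 6 without PAT male 5). It gave 0 to 2 for PAT females (3 with all arrays), 0 to 2 for PAT males (0), 0 to 2 for STAT averaged (0) and 0 to 1 for STAT males (0). For PAT against STAT it gave 0 to 3 averaged (1) and 0 to 2 in males (1). With the Gapdh covariate the count was 4 for PAT averaged (3 lower and Oasl1 higher) and 2 for PAT males (Oasl2 lower and Oasl1 higher). With title numbers below 130 alone, which leaves out PAT male 5, it was 7 for PAT averaged, 2 for PAT males and 1 for PAT against STAT in females. This setting could not be run where it left 1 STAT male. For PAT males it was 1 with only genes of mean at least 6 and with columns centred on their medians (Oasl2, lower), and 1 with quantile normalization repeated, with only the groups compared and with array weights (Oasl1, higher). Array weights gave 2 for STAT averaged, 2 for STAT males, 3 for PAT against STAT averaged, 1 in females and 3 in males. With only the groups compared, PAT against STAT gave 0 averaged, 1 in females and 0 in males. With a term for title numbers above 130 it gave 0 averaged and 2 in males, and in males it gave 2 with genes of mean at least 6 and 2 with repeated quantile normalization. Without STAT males 2 and 3 together, a setting chosen after seeing the data, it gave 0 averaged and 0 in males. The cause of these changes was not tested. Of 2238 values of single genes under the alternatives, 2044 kept their direction and side of the threshold, 24 lost a call, 48 gained one, 0 turned a called direction, and 122 changed sign with neither value called. No paired analysis was possible because the titles share no replicate number across groups. Groups of 3 to 5 arrays limit the precision.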
